A study of Mus musculus with 28 samples.

Results

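*Nnt*, *Wdfy1*, *Entpd4*, *Ide* and *Fgfbp3* are genes known to differ between the substrains C57BL/6J and C57BL/6N, either in sequence, in copy number or in expression. They were taken as a list of 5 symbols and matched to gene identifiers through the single-cell gene list, and all 5 were found among the 44674 genes of the bulk table and the 31053 genes of the single-cell tables. The study compared ovaries of wild-type females with ovaries of *Chek2*-/- females, which carry the *Chek2*tm1b(EUCOMM)Hmgu allele in every tissue and came from the KOMP program. Females were juvenile, about 1 week old, and received whole-body irradiation of 0.5 Gy from a Cs-137 source (IR) or sham treatment (nonIR), with ovaries taken 6 h later. The bulk experiment held 24 mRNA libraries of paired ovaries, 6 in each of the groups wild-type nonIR, wild-type IR, *Chek2*-/- nonIR and *Chek2*-/- IR. The single-cell experiment held 4 libraries, 1 for each of the same conditions, each made from the pooled ovaries of several females. The tm1b form is a reporter-tagged null allele, and the substrain of the *Chek2*-/- females was not given in the sources used here. The methods name C57BL/6J mice from The Jackson Laboratory, but neither they nor the labels say whether the wild-type females came from that stock or from crosses of the mutant line.

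Substrain markers matter in such a design because EUCOMM alleles were made in embryonic stem cells of C57BL/6N origin. A segment of the donor substrain can remain around a targeted gene and, depending on the crosses, elsewhere in the genome. The loss of CHEK2 and the substrain of origin cannot be told apart in these groups, since the labels give the genotype alone. *Nnt* encodes nicotinamide nucleotide transhydrogenase of the inner mitochondrial membrane, which makes NADPH for the reduction of glutathione and thioredoxin, and C57BL/6J mice carry a multi-exon deletion in it. *Wdfy1* encodes a WD repeat and FYVE domain protein of early endosomes that takes part in TLR3 and TLR4 signalling. *Entpd4* encodes a nucleoside diphosphohydrolase of the Golgi and lysosome. *Ide* encodes insulin-degrading enzyme and *Fgfbp3* a secreted carrier of fibroblast growth factors, and both lie in a segment that has been gained in some C57BL/6J stocks.

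The members lie on 4 chromosomes, none of them that of *Chek2*. In the GRCm38 annotation *Wdfy1* (ENSMUSG00000073643) is at chr1:79702262-79776143 on the minus strand, *Nnt* (ENSMUSG00000025453) at chr13:119335448-119408997 on the minus strand and *Entpd4* (ENSMUSG00000095463) at chr14:69337174-69367270 on the plus strand. *Fgfbp3* (ENSMUSG00000047632) is at chr19:36917550-36919615 and *Ide* (ENSMUSG00000056999) at chr19:37268743-37337852, both on the minus strand, and *Btaf1*, a regulator of TBP on promoters, lies between them at chr19:36926079-37012752. *Chek2* is at chr5:110839979-110874145. All are protein-coding genes. The methods name an Ensembl release of a later mouse build for the bulk counts, so the gene models counted there may differ from these, also for the neighbours, windows and copies given further on.

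The reference genome is itself of C57BL/6J, so its *Nnt* lacks the exons deleted in that substrain. The reference transcript with the longest coding sequence had 17 exons, 3464 bases and a coding sequence of 2505 bases, which is a whole number of codons. The junction of its exon 6 (chr13:119386579-119386667) and exon 7 (chr13:119381676-119381863) is shown as a stretch of this reference transcript. This junction was chosen by exon number, without locating the deletion, and is not given as the site of the deletion. Where the deleted exons would lie among its exons was not determined. The sequence gives the last 30 bases of exon 6 in lower case and the first 30 of exon 7 in capitals, in the direction of transcription.
Nnt exon junction: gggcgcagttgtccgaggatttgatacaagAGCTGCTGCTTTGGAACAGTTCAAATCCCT
The deposited files hold counts per gene and not per exon, so reads over this or any other junction were not analysed here.

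Total counts in the bulk libraries ran from 17825167 to 32605747, and 23795 to 25581 genes were detected. At that depth 3 counts in a library corresponded to 0.0931 to 0.168 CPM, which are counts relative to the library total after TMM scaling. CPM values are comparable between libraries for 1 gene and not between genes, since they are not divided by transcript length. Each comparison was tested across 26790 genes with edgeR (quasi-likelihood F-test, p adjusted by Benjamini-Hochberg), and a gene was called when its adjusted p was at most 0.05 and its change at least 2-fold. Markers of oocytes, granulosa cells and fibroblasts were present in every library, but some libraries stood apart. In the *Chek2*-/- nonIR and IR libraries numbered 6 the summed level of 8 oocyte markers was 908 and 1020 CPM, against group medians of 1730 and 1700 CPM. The summed level of 8 epithelial markers in the same libraries was 1290 and 1110 CPM, against medians of 654 and 609 CPM. The summed level of 6 neutrophil markers was 1430 CPM in wild-type IR library 3 and 1610 CPM in *Chek2*-/- IR library 2, against group medians of 1.53 and 0.997 CPM. The summed level of 6 erythroid markers was 10400 CPM in *Chek2*-/- nonIR library 5 and 7050 CPM in *Chek2*-/- IR library 2, against group medians of 641 and 457 CPM. Summed markers of oocytes, granulosa cells, fibroblasts, perivascular cells, macrophages and epithelial cells had lower medians in *Chek2*-/- ovaries in both irradiation states, in overlapping groups. The epithelial medians in nonIR ovaries were nearly equal, at 657 CPM in wild-type and 654 CPM in *Chek2*-/-. Other lists went the other way. Endothelial medians were 380 (nonIR) and 374 CPM (IR) in wild-type against 394 and 388 CPM in *Chek2*-/- ovaries, and erythroid medians 462 and 352 against 641 and 457 CPM. The medians of 8 fibroblast markers were 5010 (nonIR) and 5050 CPM (IR) in wild-type and 4200 and 4180 CPM in *Chek2*-/- ovaries, those of 6 perivascular markers 340 and 337 against 257 and 192 CPM, and those of the oocyte markers 1940 and 1810 against 1730 and 1700 CPM. For 8 granulosa markers they were 1500 and 1460 against 1390 and 1400 CPM, and for 7 macrophage markers 38.7 and 40 against 31.8 and 34.5 CPM. The part of these shifts in the differences of the members was not tested. Fewer cells of a type and less RNA per cell cannot be told apart in bulk ovaries.

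The genotype labels were checked on *Chek2*. It was at 22.4 ± 1.66 CPM in wild-type nonIR and 21.1 ± 1.98 CPM in wild-type IR ovaries (SD, n = 6 each), with 12 libraries between 18.5 and 24.6 CPM. In the 12 *Chek2*-/- libraries it lay between 2.88 and 4.53 CPM, and no library went against its label.

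*Nnt* was higher in *Chek2*-/- than in wild-type ovaries. In wild-type nonIR libraries 1 to 6 it was at 26.6, 27.8, 34.1, 33, 36.3 and 36.4 CPM, and in wild-type IR libraries at 33.3, 28.1, 33.4, 29.7, 36.1 and 31.8 CPM. In *Chek2*-/- nonIR libraries it was at 58.5, 61.1, 66.4, 59.2, 78.3 and 77.3 CPM, and in *Chek2*-/- IR libraries at 62.5, 66.9, 66.8, 54.7, 76.4 and 69.4 CPM. The lowest *Chek2*-/- library was thus above the highest wild-type library, and transcripts of the gene were present in every wild-type library. The log2 fold change was 1.04 without irradiation (SE 0.0938, 2.06-fold, edgeR adjusted p = 1.05e-07) and 1.04 with irradiation (SE 0.0939, edgeR adjusted p = 3.32e-08). The difference was close to the 2-fold limit. It fell to 1.00 or just under, and the call was lost, in nonIR ovaries without wild-type library 1 or *Chek2*-/- library 5 or 6, and in IR ovaries without wild-type library 2 (1.00) or *Chek2*-/- library 5 (0.99), with adjusted p of at most 4.29e-07 in these fits. *Chek2*-/- nonIR library 5, the highest for *Nnt*, is the one of its group with the high erythroid markers. *Chek2*-/- IR library 2, also high in them, was at 66.9 CPM of *Nnt* against a group median of 66.8 CPM. *Chek2*-/- nonIR library 6 was at 77.3 CPM of *Nnt* with summed erythroid markers of 829 CPM. Without both libraries high in erythroid markers the values were 1.00 in nonIR (edgeR adjusted p = 7.08e-07, not called) and 1.04 in IR ovaries.

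*Wdfy1* showed the largest rise of the members. In wild-type nonIR libraries 1 to 6 it was at 20.4, 22.3, 22.8, 21.5, 23.1 and 24.8 CPM, and in wild-type IR libraries at 20.7, 26, 25.6, 18.3, 24.2 and 23.7 CPM. In *Chek2*-/- nonIR libraries it was at 63.1, 63.3, 64.5, 58.7, 65.3 and 70.4 CPM, and in *Chek2*-/- IR libraries at 59.5, 65.9, 62, 62, 66.7 and 70.2 CPM. The 12 wild-type libraries ended at 26 CPM and the 12 *Chek2*-/- libraries began at 58.7 CPM, with no overlap. The log2 fold change was 1.51 (SE 0.0704, 2.85-fold, edgeR adjusted p = 2.52e-13) in nonIR and 1.48 (SE 0.0704, 2.79-fold, edgeR adjusted p = 2.77e-13) in IR ovaries, which placed the gene 4th and 6th by p among the 26790 genes. With any 1 of the 24 libraries left out it stayed between 1.48 and 1.54 in nonIR and between 1.42 and 1.51 in IR ovaries.

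**Figure D1:**
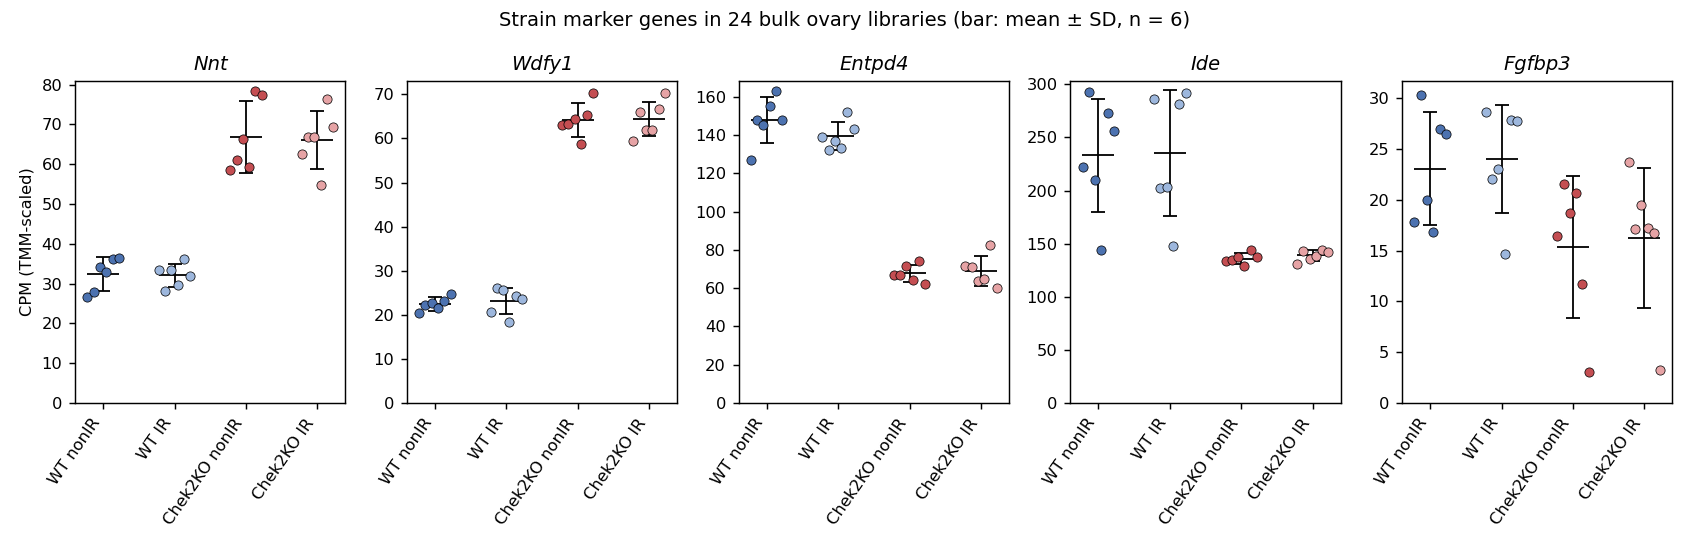
CPM of the 5 members in each of the 24 bulk libraries, by group, with the mean and SD of 6 libraries. Over the 24 libraries the genotypes do not overlap for *Nnt*, *Wdfy1* and *Entpd4*, with 58.7 to 70.4 CPM of *Wdfy1* in *Chek2*-/- against 18.3 to 26 CPM in wild-type libraries. Those of *Ide* are apart only within each irradiation state, and those of *Fgfbp3* overlap.

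*Entpd4* was lower in *Chek2*-/- ovaries. Wild-type nonIR libraries 1 to 6 had 127, 148, 145, 155, 163 and 148 CPM, and wild-type IR libraries 139, 132, 137, 133, 152 and 143 CPM. *Chek2*-/- nonIR libraries had 66.7, 66.7, 71.8, 64.5, 74.2 and 62.2 CPM, and *Chek2*-/- IR libraries 71.6, 71.2, 63.9, 64.7, 82.6 and 60.1 CPM. The highest *Chek2*-/- library, at 82.6 CPM, was well below the lowest wild-type library at 127 CPM. The log2 fold change was -1.12 (SE 0.0672, 2.18-fold lower, edgeR adjusted p = 4.49e-11) in nonIR and -1.01 (SE 0.0671, 2.02-fold lower, edgeR adjusted p = 1.16e-10) in IR ovaries. The IR value went under the 2-fold limit without *Chek2*-/- IR library 6 (-0.99). The annotation holds a second copy, *Entpd4b*, at chr14:69555424-69585520. The 2 genes were searched for identical transcripts, and the longest such pair was 3589 bases long. Reads from this transcript cannot be told apart by sequence, so the bulk value cannot be tied to 1 locus. Other transcripts of the 2 genes were not compared.

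Genes next to *Entpd4* were lower as well. Of the 5 tested genes on each side of it, 6 of 10 were called lower in nonIR and 7 of 10 in IR ovaries, with a median log2 fold change of -1.4 and -1.59. Over all tested genes 0.788% were called in either direction in nonIR and 2.39% in IR ovaries. The most distant of the 10 started 245 kb away. The spans of some of the 10 overlap (below), so they may not be separate counts. For *Nnt*, *Wdfy1*, *Ide* and *Fgfbp3*, and for *Chek2* itself, 0 of 10 such neighbours were called by edgeR in either comparison, a count that 10 genes at these shares would often give. *Synb*, the gene of the placental fusion protein syncytin-B, was at 41.5 ± 8.46 CPM in wild-type and 16.4 ± 2.68 CPM in *Chek2*-/- nonIR ovaries (SD, n = 6 each), -1.34 on the log2 scale (edgeR adjusted p = 9.31e-07). *Gm16677*, which ends just before *Entpd4* begins, was at 23 ± 3.1 and 8.39 ± 1.63 CPM (log2 fold change -1.45, edgeR adjusted p = 1.43e-07).

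The gene models *Gm16867* and *Gm21451* were almost without counts in *Chek2*-/- ovaries. *Gm16867* (chr14:69363504-69503362, minus strand) was at 27.3 to 34 CPM in wild-type nonIR libraries, 4556 counts in all. In *Chek2*-/- nonIR ovaries it had 13 counts in all, with 5 of 6 libraries at 0. In IR ovaries it had 3943 counts in wild-type and 97 in *Chek2*-/- libraries, of which 3 of 6 were at 0. *Gm21451*, whose span lies inside that of *Gm16867*, had 2173 counts in wild-type and 4 in *Chek2*-/- nonIR ovaries, with 5 of 6 libraries of the latter at 0. In IR ovaries it had 2099 and 6 counts. The remaining called neighbours were expressed at low levels. *Gm27221* had 131 counts in wild-type and 19 in *Chek2*-/- nonIR ovaries, and *Gm38378* had 113 and 13. *Gm27177*, called in IR ovaries alone, was at 7.86 ± 4.7 CPM in wild-type and 2.1 ± 0.94 CPM in *Chek2*-/- IR libraries (SD, n = 6 each), with overlapping groups. In nonIR ovaries *Gm27177* was at 2.7 CPM in wild-type and 2.5 CPM in *Chek2*-/- libraries (log2 fold change -0.11, edgeR adjusted p = 0.919). Its wild-type IR level was thus the one that stood apart. *Gm27221* lies within *Entpd4* and *Gm16867* overlaps its 3′ end on the other strand. Since the use of strand in the counting was not stated, reads over these stretches cannot be told apart. *Gm38378* lies inside the spans of *Gm21451* and *Gm16867*, and the span of *Gm27177* overlaps the end of *Entpd4b*.

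Over a window of 5 Mb on each side, 7 of the 107 tested genes around *Entpd4* (6.54%) were called in nonIR and 10 (9.35%) in IR ovaries, beside 0.788% and 2.39% of all tested genes. The 7 called in both were the 6 neighbours above and *Egr3*, an immediate early transcription factor. Around *Nnt* 0 of 38 and 1 of 38 genes were called, around *Wdfy1* 2 and 4 of 101, around *Ide* 1 of 107 in both and around *Fgfbp3* 1 of 95 in both. The windows of *Ide* and *Fgfbp3* share most of their genes, and the called gene was *Opalin* in each. These windows, with 0 to 4 called genes, give no count to be read apart from the share over all genes.

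**Figure D2:**
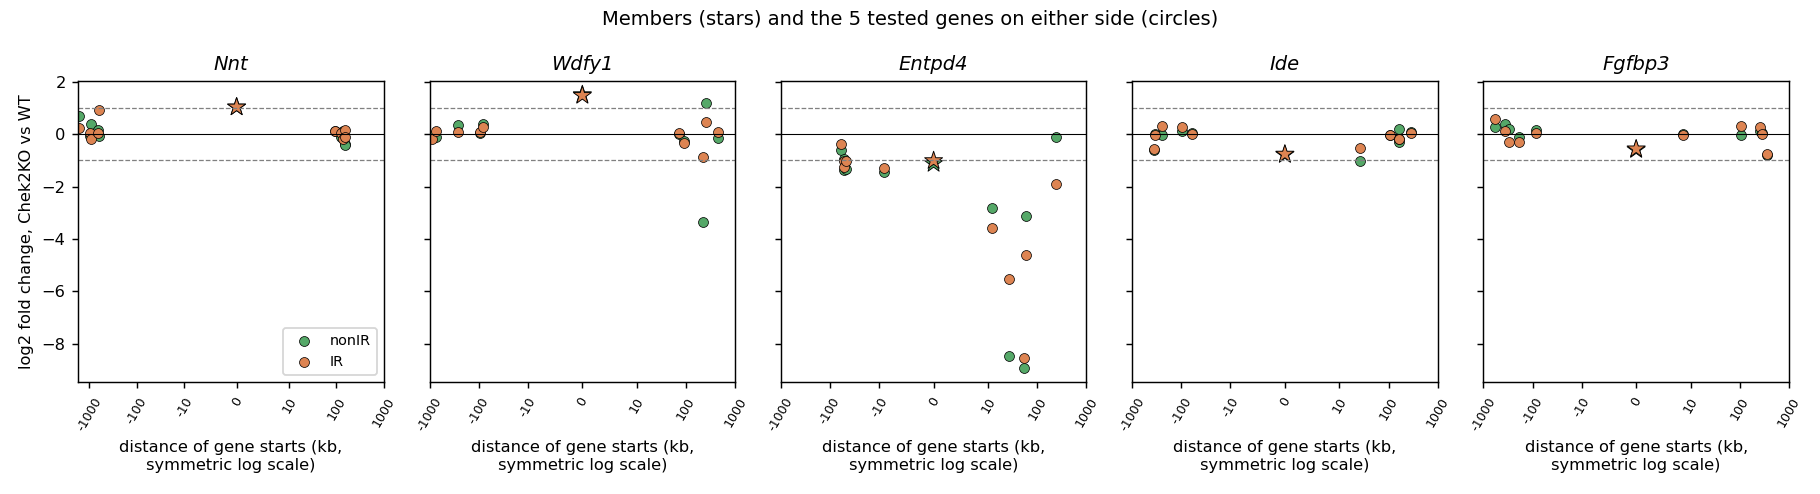
Log2 fold change of *Chek2*-/- over wild-type bulk ovaries for the 5 tested genes on each side of each member, against the distance of their start from the start of that member in kb. In nonIR ovaries 6 of 10 neighbours of *Entpd4* are called, and 0 of 10 neighbours of each other member.

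*Ide* was lower in *Chek2*-/- ovaries, and its level was spread widely over the wild-type libraries. Wild-type nonIR libraries 1 to 6 had 222, 293, 210, 144, 273 and 256 CPM, and wild-type IR libraries 286, 202, 203, 148, 281 and 292 CPM. *Chek2*-/- nonIR libraries had 134, 135, 137, 129, 144 and 137 CPM, and *Chek2*-/- IR libraries 131, 143, 136, 138, 144 and 142 CPM. The ranges differed in width, since the highest wild-type library was 2.04 times the lowest while the highest *Chek2*-/- library was 1.12 times the lowest. The 2 lowest wild-type libraries, both numbered 4, lay at and just above the upper end of the *Chek2*-/- range, at 144 and 148 CPM, and the remaining 10 lay at 202 to 293 CPM. Relative to the mean of the 12 *Chek2*-/- libraries, the wild-type libraries were at 1.05 to 2.13. The log2 fold change was -0.78 (SE 0.142, 1.71-fold lower, edgeR adjusted p = 0.00367) in nonIR and -0.76 (SE 0.142, 1.69-fold lower, edgeR adjusted p = 0.000902) in IR ovaries. *Ide* passed the adjusted p in both but was below the 2-fold limit, so it was not called. Within each irradiation state the groups did not overlap, by less than 1 CPM in nonIR ovaries, where the highest *Chek2*-/- and the lowest wild-type library were both at 144 CPM. Over both states together they met at that level, since *Chek2*-/- IR library 5 was slightly above wild-type nonIR library 4.

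*Fgfbp3* did not pass the test. Wild-type nonIR libraries 1 to 6 had 17.8, 30.3, 20, 16.8, 26.9 and 26.5 CPM, and wild-type IR libraries 28.6, 22, 23, 14.7, 27.8 and 27.7 CPM. *Chek2*-/- nonIR libraries had 16.4, 21.5, 18.7, 20.7, 11.7 and 3.04 CPM, and *Chek2*-/- IR libraries 23.7, 17.1, 19.5, 17.2, 16.7 and 3.22 CPM. The genotypes overlapped, and both *Chek2*-/- libraries numbered 6 lay far below the rest of their groups. The log2 fold change was -0.59 (SE 0.348, 95% interval -1.31 to 0.14, edgeR adjusted p = 0.346) in nonIR and -0.56 (SE 0.347, 95% interval -1.29 to 0.16, edgeR adjusted p = 0.355) in IR ovaries. With both libraries numbered 6 left out it was -0.37 (SE 0.177, edgeR adjusted p = 0.21) and -0.36 (SE 0.176, edgeR adjusted p = 0.205). The same 2 libraries had the lowest summed oocyte markers (above) and the lowest summed levels of 8 granulosa markers, at 1130 and 1100 CPM against group medians of 1390 and 1400 CPM. The part of these shifts in the level of *Fgfbp3* was not tested.

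*Ide* and *Fgfbp3* were high and low in the same wild-type libraries. Pearson's r of their log2 CPM values was 0.88 within the 6 nonIR (exact permutation p = 0.0125) and 0.97 within the 6 IR libraries (exact permutation p = 0.00833), both with an adjusted p of 0.114 over 48 relations. Over the 12 libraries r was 0.92 (permutation p = 8e-05, adjusted 0.00192 over 24 relations) and Spearman's rho 0.91 (permutation p = 0.00013, adjusted 0.00312). These p-values take the 12 libraries as independent and may be too small. Same-numbered nonIR and IR wild-type libraries deviated together (a correlation across genes over 0.1) in 3 of 6 pairs, with 0.01 to 0.44 over the 6. In 2 of the 6 pairs the library of the same number was also the best match. The coefficient was 0.84 without wild-type nonIR library 4 and wild-type IR library 4, the libraries farthest from the median of *Ide*. The *Ide* values left gaps between 148 and 202 CPM and between 222 and 256 CPM, so the coefficient over 12 libraries rests in part on these gaps, and within the 6 libraries highest in *Ide* it was 0.78. Within *Chek2*-/- libraries r was -0.36 in nonIR (exact permutation p = 0.382) and -0.45 in IR (exact permutation p = 0.321), over a narrow range of *Ide*. *Btaf1*, which lies between the 2 genes, had about the same mean in both genotypes, 115 CPM over 12 libraries each, with log2 fold changes of 0.01 (edgeR adjusted p = 0.974) and -0.01 (edgeR adjusted p = 0.959). In wild-type libraries *Btaf1* ranged from 94.7 to 139 CPM, and its r with *Ide* was 0.68 within nonIR (exact permutation p = 0.122) and 0.93 within IR libraries (exact permutation p = 0.0153, adjusted 0.114). Over the 12 libraries it was 0.82 (permutation p = 0.00096, adjusted 0.00768, rho 0.80 with an adjusted 0.0233), and 0.75 without the 2 libraries numbered 4. For *Fgfbp3* and *Btaf1* r over the 12 was 0.72 (permutation p = 0.0113, adjusted 0.0398, rho 0.69 with an adjusted 0.0621), and 0.52 without the same 2 libraries. Within nonIR and IR libraries it was 0.57 (exact permutation p = 0.231, adjusted 0.443) and 0.84 (exact permutation p = 0.0264, adjusted 0.14), and within the 6 libraries highest in *Fgfbp3* -0.84. Within the 6 libraries highest in *Ide* the coefficient of *Ide* and *Btaf1* was -0.39.

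**Figure D3:**
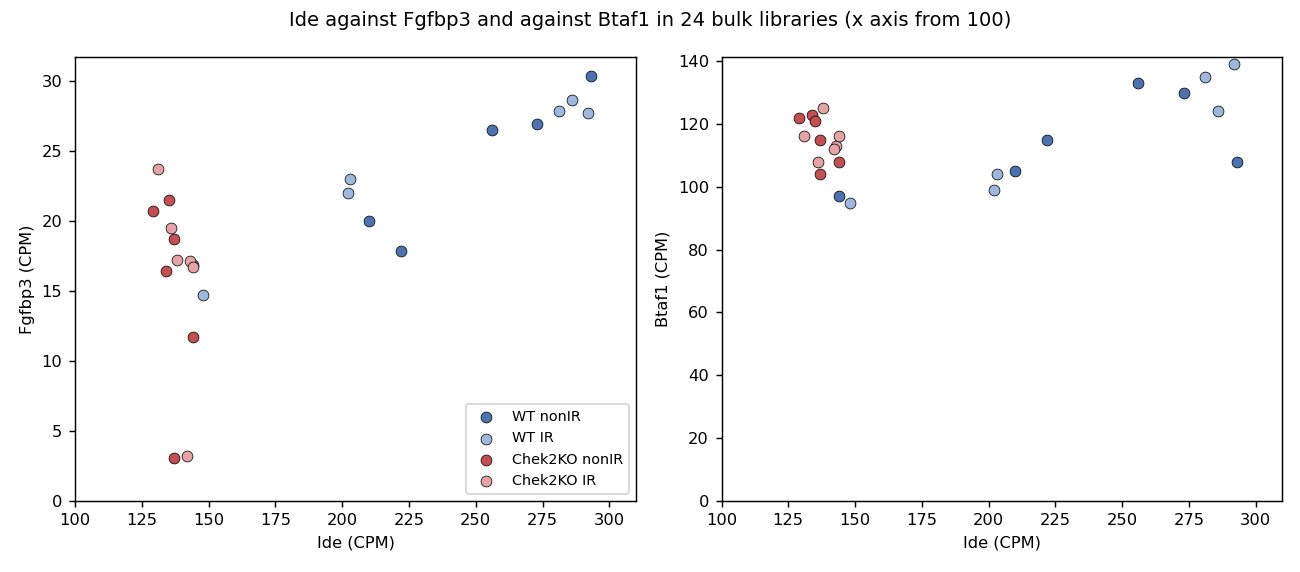
CPM of *Fgfbp3* against CPM of *Ide* in the 24 bulk libraries, with each point 1 library and colours for the 4 groups. Wild-type libraries spread from 144 to 293 CPM of *Ide* with *Fgfbp3* rising along (r = 0.92, n = 12), and *Chek2*-/- libraries stay within 129 to 144 CPM of *Ide*, with 2 libraries at 3.04 and 3.22 CPM of *Fgfbp3*.

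None of the 48 relations within 1 group of 6 libraries, between members or with *Btaf1*, had an adjusted p of at most 0.05. The smallest was that of *Wdfy1* and *Fgfbp3* in *Chek2*-/- IR libraries (r = -0.81, exact permutation p = 0.00139, adjusted 0.0667), with r = -0.85 in the nonIR libraries (exact permutation p = 0.0167, adjusted 0.114). The libraries numbered 6, lowest in *Fgfbp3*, were the highest in *Wdfy1* in both groups. For relations over the 12 *Chek2*-/- libraries no p-value is given, since the 12 may not be independent. Same-numbered nonIR and IR libraries deviated together (a correlation across genes over 0.1) in 5 of 6 pairs, with 0.05 to 0.69 over the 6. In 3 of the 6 pairs the library of the same number was also the best match.

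Read together, 3 of the 5 members were called in both genotype comparisons, *Nnt* and *Wdfy1* higher and *Entpd4* lower. The members were chosen with earlier results of these data known. Their counts beside the shares over all genes are therefore no test of the list. *Ide* and *Fgfbp3* also lie in the same segment, so the 5 are not 5 independent markers. In nonIR ovaries the background was 160 of 26790 genes called higher (0.597%) and 51 called lower (0.19%). In IR ovaries it was 266 called higher (0.993%) and 373 called lower (1.39%). With the adjusted p alone *Ide* counted as lower too, against a background of 3.12% higher and 2.22% lower in nonIR and 5.52% higher and 4.32% lower in IR ovaries. The libraries of the genotypes did not overlap for 4 of 5 members in both comparisons, where 3.22% of all tested genes did not overlap in nonIR and 5.3% in IR ovaries. The nonIR and IR comparisons share no library, and 61 genes were called in both with the same sign, 26 higher and 35 lower. They may still not be independent, since both come from the same fit with a shared estimate of the spread. Same-numbered *Chek2*-/- nonIR and IR libraries also deviated together in 5 of 6 pairs.

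**Figure D4:**
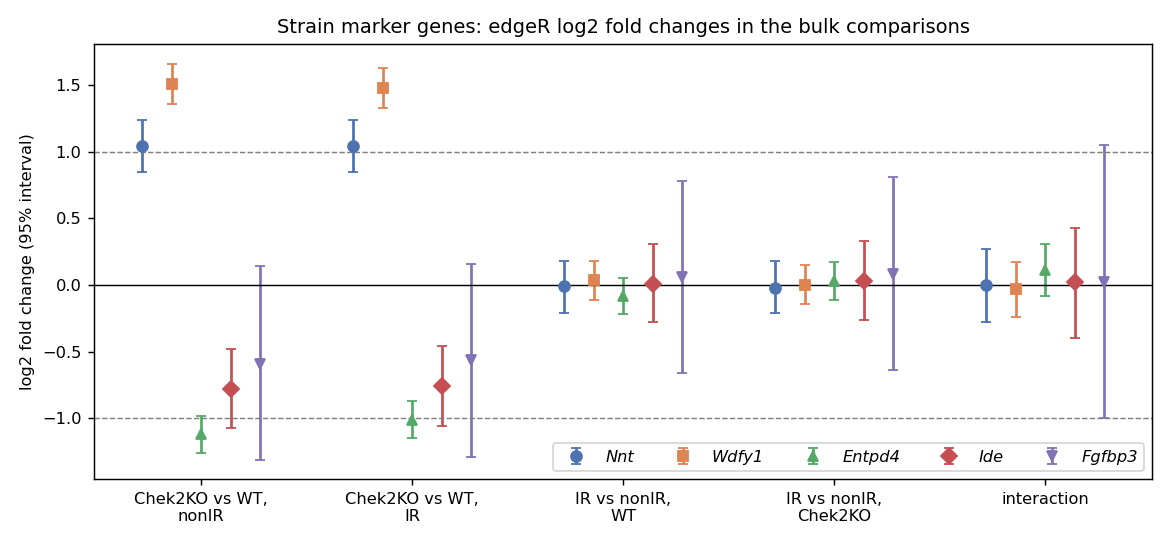
Log2 fold change with its 95% interval for the 5 members, for genotype in nonIR and IR bulk ovaries and for irradiation in each genotype, from the fit over all 24 libraries. The genotype values of *Wdfy1* (1.51 and 1.48), *Nnt* (1.04 and 1.04), *Entpd4* (-1.12 and -1.01) and *Ide* (-0.78 and -0.76) lie away from 0, while the irradiation values of the members lie within 0.08 of 0.

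In the bulk libraries no irradiation difference of a member passed the test. In wild-type ovaries, where 1.08% of the tested genes were called between IR and nonIR, the log2 fold changes of the members ran from -0.08 for *Entpd4* (SE 0.0661, edgeR adjusted p = 0.751) to 0.06 for *Fgfbp3* (SE 0.345, 95% interval -0.66 to 0.78, edgeR adjusted p = 0.994). In *Chek2*-/- ovaries, where 1 gene was called (0.00373%), 3 genes passed the edgeR adjusted p alone and 1179 had an unadjusted p under 0.05, they ran from -0.02 for *Nnt* to 0.08 for *Fgfbp3* (edgeR adjusted p = 1 for all 5). The difference between the genotype effects in IR and nonIR ovaries, tested as the interaction, ran from -0.03 for *Wdfy1* (95% interval -0.24 to 0.17, edgeR adjusted p = 0.987) to 0.11 for *Entpd4* (95% interval -0.08 to 0.31, edgeR adjusted p = 0.835), where 0.623% of the tested genes were called.

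The genes most like each member were ranked by Pearson's r of log2 CPM over the 24 libraries, among 15955 genes with a mean of at least 1 CPM. The measure mixes the difference between genotypes with the variation inside them, so the coefficient within each genotype is given beside it. The gene most like *Nnt* was *Wdfy1* (r = 0.967, with 0.34 within wild-type and 0.70 within *Chek2*-/- libraries), while *Nnt* came after *Tmem181b-ps* for *Wdfy1*. Both members shared *Tmem181b-ps* (r = 0.937 with *Nnt* and 0.969 with *Wdfy1*) and *Pisd-ps2* (0.934 and 0.953), 2 transcribed pseudogenes of chromosome 17. Within the genotypes little of this was left, since *Tmem181b-ps* had 0.09 (wild-type) and -0.33 (*Chek2*-/-) with *Nnt* and -0.06 and -0.22 with *Wdfy1*, and *Pisd-ps2* had -0.05 and 0.27 with *Nnt* and -0.17 and 0.13 with *Wdfy1*. *Tmem181b-ps* was higher in *Chek2*-/- ovaries, by 1.38 on the log2 scale (edgeR adjusted p = 6.66e-14) in nonIR and 1.77 (edgeR adjusted p = 3.12e-16) in IR ovaries. *Pisd-ps2* had 0.85 (edgeR adjusted p = 6.87e-10) and 0.82 (edgeR adjusted p = 3.77e-10), below the 2-fold limit.

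*Entpd4* was most like *Gm15446* (r = 0.983), *Chek2* (0.977) and its neighbour *Gm16867* (0.971). Within wild-type and *Chek2*-/- libraries these coefficients were 0.56 and 0.40 for *Gm15446*, -0.10 and 0.42 for *Chek2* and 0.41 and 0.31 for *Gm16867*. *Gm15446* starts on chromosome 5 at -916.6 kb from the start of *Chek2* and was at 23.9 ± 3.16 CPM in wild-type and 2.66 ± 0.156 CPM in *Chek2*-/- nonIR ovaries (SD, n = 6 each), -3.17 on the log2 scale (edgeR adjusted p = 1.9e-16). Within 5 Mb of *Chek2* 3 of 259 tested genes (1.16%) were called in nonIR and 8 (3.09%) in IR ovaries, near the shares of 0.788% and 2.39% over all genes. The 2 called in both were *Gm15446* and *1010001B22Rik*.

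*Ide* was most like *G530011O06Rik* (r = 0.861) and *Mid1* (0.853), which overlap on the X chromosome, and *Gm16867* (0.837). *Mid1*, a microtubule-associated ubiquitin ligase at the pseudoautosomal boundary, was at 109 ± 26.7 CPM in wild-type and 37.4 ± 7.51 CPM in *Chek2*-/- nonIR ovaries (SD, n = 6 each), -1.54 on the log2 scale (edgeR adjusted p = 9.97e-07). The coefficient of *Ide* with *Mid1* was 0.55 within wild-type and -0.49 within *Chek2*-/- libraries, that with *G530011O06Rik* 0.50 and 0.60, and that with *Gm16867* 0.54 and 0.42. *Fgfbp3* was most like *Elavl3* (0.952), *Shisa8* (0.945) and *Zbed3* (0.937), with coefficients of 0.97 to 0.98 within *Chek2*-/- and 0.37 to 0.51 within wild-type libraries. Their lowest libraries were *Chek2*-/- ones too, with *Zbed3* down to 245 CPM against a group median of 649 CPM in nonIR ovaries, and their genotype differences were not called (edgeR adjusted p = 0.151 to 0.453).

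Genes that work with the members were compared as lists. With 0.788% and 2.39% of all genes called, lists this short would hold few called genes or none, so their counts are not read as a result about the lists. Of 16 genes of mitochondrial NADPH supply and redox defence, 0 were called by edgeR in either comparison. Their median log2 fold changes were 0.02 and 0 beside 0.01 over all genes, and with the adjusted p alone *Idh2*, which makes NADPH in mitochondria, passed in both at -0.25 (edgeR adjusted p = 0.0337 and 0.0194) and *Aldh1l2*, a mitochondrial folate enzyme that makes NADPH, in IR ovaries at 0.57 (edgeR adjusted p = 0.015). Of 10 genes of TLR3 and TLR4 signalling and the WDFY family 0 were called, with medians of 0.01 and -0.04, and the kinase gene *Tbk1* passed the adjusted p alone in both at 0.14 and 0.18. Of 8 tested nucleoside diphosphohydrolases other than *Entpd4* 0 were called, with medians of 0.07 and 0.10, and *Entpd7* passed the adjusted p alone in IR ovaries at 0.33. Of 8 tested genes of the M16 metalloproteases and other peptide-degrading enzymes 0 were called, with medians of 0.01 and 0.05, and *Pitrm1* passed the adjusted p alone in IR ovaries at 0.21.

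Of 10 genes of FGF ligands, receptors and carriers 0 were called in nonIR and 1 in IR ovaries, with medians of 0.20 and -0.18. The gene was the ligand *Fgf7*, at 1.26 CPM in wild-type and 0.454 CPM in *Chek2*-/- IR ovaries (log2 fold change -1.47, SE 0.241, edgeR adjusted p = 0.000197). In nonIR ovaries *Fgf7* was at 0.482 CPM in wild-type and 0.653 CPM in *Chek2*-/- libraries (log2 fold change 0.42, edgeR adjusted p = 0.343). The receptor gene *Fgfr4* passed the adjusted p alone in nonIR ovaries at -0.80 (edgeR adjusted p = 0.016). Among 3 genes with coding variants between the substrains, *Crb1* was at -0.69 in nonIR (edgeR adjusted p = 0.0126) and 0.17 in IR ovaries. *Cyfip2* was at 0.01 and 0.19 and *Nlrp12* at 0 (SE 8.97) and 1.31 (SE 0.846), with 0 of 3 called. *Nlrp12* had only 25 to 102 counts per group of 6 libraries. Of 6 neutrophil genes *Retnlg* was called in IR ovaries (log2 fold change 4.90, edgeR adjusted p = 0.0402), in overlapping groups that hold the 2 libraries with high neutrophil markers. Of 5 genes of oviduct and uterus *Krt4* was called in IR ovaries (-3.41, edgeR adjusted p = 0.0292), also in overlapping groups. It had few counts there, 72 in all wild-type and 8 in all *Chek2*-/- IR libraries. In nonIR ovaries 0 genes of either list were called, with medians of -0.14 and 1.59, against 0.11 and -1.81 in IR ovaries.

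In the single-cell experiment 9277 wild-type nonIR, 9779 wild-type IR, 8697 *Chek2*-/- nonIR and 8771 *Chek2*-/- IR cells were used, after filters and the removal of called doublets. Any 2 libraries shared 30 to 73 cell barcodes, at most 0.71% of the smaller library. With 1 library per condition there is no replicate and no test between genotypes, and the intervals given are exact 95% limits for counting error only. Levels are unique molecular identifiers (UMIs) of a gene relative to all UMIs of the cells summed, on the same CPM scale. Cells were clustered without the members, and clusters were named as like a cell type from marker lists, which gave 9 classes. Granulosa-like cells made up 32.6 to 40.1% and fibroblast-like cells 47.6 to 54.3% of each library. Oocyte-like cells numbered 75 to 196, and their median UMI count was 14183 in the wild-type IR library against 120517.5 to 181498 in the others. The class named erythroid-like from globin and other markers also carried most granulosa and fibroblast markers. *Chek2* itself was lower in the *Chek2*-/- libraries, at 3.56 and 3.77 CPM over all barcodes against 10.8 and 10.5 CPM.

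*Wdfy1* was higher in the *Chek2*-/- libraries in each of the 9 classes. Over all cells it was at 11.7 CPM in wild-type nonIR, 11.6 in wild-type IR, 30.3 in *Chek2*-/- nonIR and 29.5 in *Chek2*-/- IR libraries. The ratio of *Chek2*-/- to wild-type was 2.6 (2.47 to 2.73) without and 2.55 (2.42 to 2.68) with irradiation, near the bulk folds of 2.85 and 2.79. In granulosa-like cells it was 2.86 and 2.63 and in fibroblast-like cells 2.28 and 2.42. In oocyte-like cells it was 4.12 (3.47 to 4.89) and 5.7 (4.43 to 7.44), from wild-type levels of 7.57 and 5.16 CPM. Endothelial-like cells had the highest level of the gene in every library, 54.2 and 54.8 CPM in wild-type and 99.3 and 96.4 CPM in *Chek2*-/-, with ratios of 1.83 and 1.76. The ratio was above 1 in 9 of 9 classes in both conditions, with intervals above 1 in 7 and 8 of them.

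*Nnt*, in contrast to the bulk libraries, was not higher in the *Chek2*-/- single-cell libraries. Over all cells it was at 5.69 and 5.47 CPM in wild-type and 5.16 and 4.98 CPM in *Chek2*-/- nonIR and IR libraries, ratios of 0.907 (0.828 to 0.993) and 0.911 (0.832 to 0.997). The ratio was above 1 in 2 of 9 classes without and 4 of 9 with irradiation, and 0 of the intervals lay above 1. In granulosa-like cells it was 0.828 (0.724 to 0.947) and 0.827 (0.725 to 0.943), and in fibroblast-like cells 0.856 and 1.04. Oocyte-like cells had the lowest level, 0.337 to 1.24 CPM from 4 to 36 UMIs per library. The single-cell gene list holds a second model of *Nnt*, with 3339 exonic bases that all lie within exons of the first, which they cover for 47.4% of its 7037 exonic bases. The second model had 0 UMIs in each library, and the first extends 80 bases beyond its 3′ end. Reads that fall in exons of both models cannot be given to one of them, and the part of this in the single-cell level of *Nnt* was not tested.

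*Entpd4* was practically uncounted in single cells. It had 0, 1, 0 and 0 UMIs over all barcodes of the 4 libraries, and *Entpd4b*, its copy with an identical transcript, had 0 in each. A count of 0 allows up to 0.0143 to 0.0164 CPM in these libraries. The bulk table held one of the 2 copies, at 127 to 163 CPM in wild-type libraries, so the single-cell libraries give no value for this gene in any class.

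*Ide* and *Fgfbp3* were higher in the *Chek2*-/- single-cell libraries, which for *Ide* is the opposite direction to the bulk difference. *Ide* was at 83.2 and 60.9 CPM in wild-type and 114 and 85.8 CPM in *Chek2*-/- nonIR and IR cells, ratios of 1.36 (1.33 to 1.39) and 1.41 (1.37 to 1.44). *Fgfbp3* was at 54.9 and 47.1 CPM in wild-type and 90.5 and 77.6 CPM in *Chek2*-/- cells, a ratio of 1.65 in both conditions (1.61 to 1.69 and 1.60 to 1.69). The mix of classes differed between libraries, with granulosa-like cells at 32.6% (wild-type) and 37.6% (*Chek2*-/-) in nonIR and 37.2% and 40.1% in IR libraries. Ratios over all cells take in this mix, whose part was not tested, and ratios by class are given below. In the bulk libraries *Ide* was 1.71-fold and 1.69-fold lower in *Chek2*-/- ovaries. The lowest of the 12 wild-type bulk libraries was at 1.05 times the mean of the *Chek2*-/- libraries in *Ide*, so none of them lay below that mean. Each wild-type single-cell library lay below the *Chek2*-/- library of its condition. Taken library by library, *Chek2*-/- IR library 5 was slightly above wild-type nonIR library 4. The bulk difference of *Fgfbp3* did not pass the test, and wild-type IR library 4 was at 0.933 times the *Chek2*-/- mean of that gene. The reason for the difference between the experiments was not tested.

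The higher level of *Ide* held across most classes. The ratio was above 1 in 8 of 9 classes without and 9 of 9 with irradiation, with intervals above 1 in 6 of 9 in each. It was 1.39 and 1.43 in granulosa-like, 1.45 and 1.3 in fibroblast-like and 1.19 and 1.4 in oocyte-like cells. *Ide* was at 78.3 to 155 CPM in granulosa-like, 80.2 to 136 CPM in epithelial-like and 72.1 to 116 CPM in oocyte-like cells over the 4 libraries, and lowest in pericyte-like cells, at 15.7 to 24.2 CPM. The level of *Ide* was also lower in the IR than in the nonIR library of each genotype, over all cells (values above) and in granulosa-like cells. In the latter it was at 78.3 against 112 CPM in wild-type and 112 against 155 CPM in *Chek2*-/-. This was not particular to *Ide*. Over all cells *Fgfbp3* (values above) was lower in both IR libraries too. *Btaf1* was at 19.9 against 22.8 CPM in wild-type and 22.2 against 25.3 CPM in *Chek2*-/- cells, and *Wdfy1* and *Nnt* were only slightly lower. With 1 library per condition these differences were not tested. In the bulk libraries the log2 difference of *Ide* between IR and nonIR was 0.01 (95% interval -0.28 to 0.31) in wild-type and 0.03 (-0.26 to 0.33) in *Chek2*-/- ovaries.

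*Fgfbp3* was highest in granulosa-like cells. It was at 114 and 90 CPM in wild-type and 171 and 150 CPM in *Chek2*-/- granulosa-like cells, ratios of 1.5 (1.46 to 1.55) and 1.67 (1.62 to 1.72). Erythroid-like cells, whose class also carried granulosa and fibroblast markers, had 37.9 to 82 CPM, macrophage-like cells 5.45 to 62.8 CPM from 2 to 28 UMIs, fibroblast-like cells 14.2 to 27.9 CPM and oocyte-like cells 4.86 to 10 CPM. Free RNA was not separated from these levels. Within the granulosa-like cells the level differed between clusters. In cluster 1, led by *Amh* and *Ihh*, it was at 151 to 283 CPM over the 4 libraries, and in the dividing cluster 0 at 121 to 158 CPM. Cluster 12, with *Bmp4* among its leading genes, had 54 to 85.6 CPM and cluster 6, led by *Akr1c18*, had 15.5 to 33.2 CPM. The clusters held different numbers of cells, with 1613 wild-type and 935 *Chek2*-/- IR cells in cluster 12 (1017 and 1258 nonIR) and 961 and 1448 IR cells in cluster 1 (1046 and 1151 nonIR). Within clusters 0, 1, 6 and 12 the ratio was 1.28, 1.65, 1.21 and 1.19 in nonIR and 1.24, 1.36, 1.74 and 1.59 in IR libraries. Over all 9 classes the ratio was above 1 in 7 without and 8 with irradiation, with intervals above 1 in 7 and 4 of them. In fibroblast-like cells it was 1.49 (1.38 to 1.60) without and 1.16 (1.06 to 1.27) with irradiation. In oocyte-like cells it was 0.546 (0.411 to 0.717) without and 1.18 (0.853 to 1.63) with irradiation, from 65 to 290 UMIs. *Btaf1* had a ratio of 1.11 and 1.12 over all cells.

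**Figure D5:**
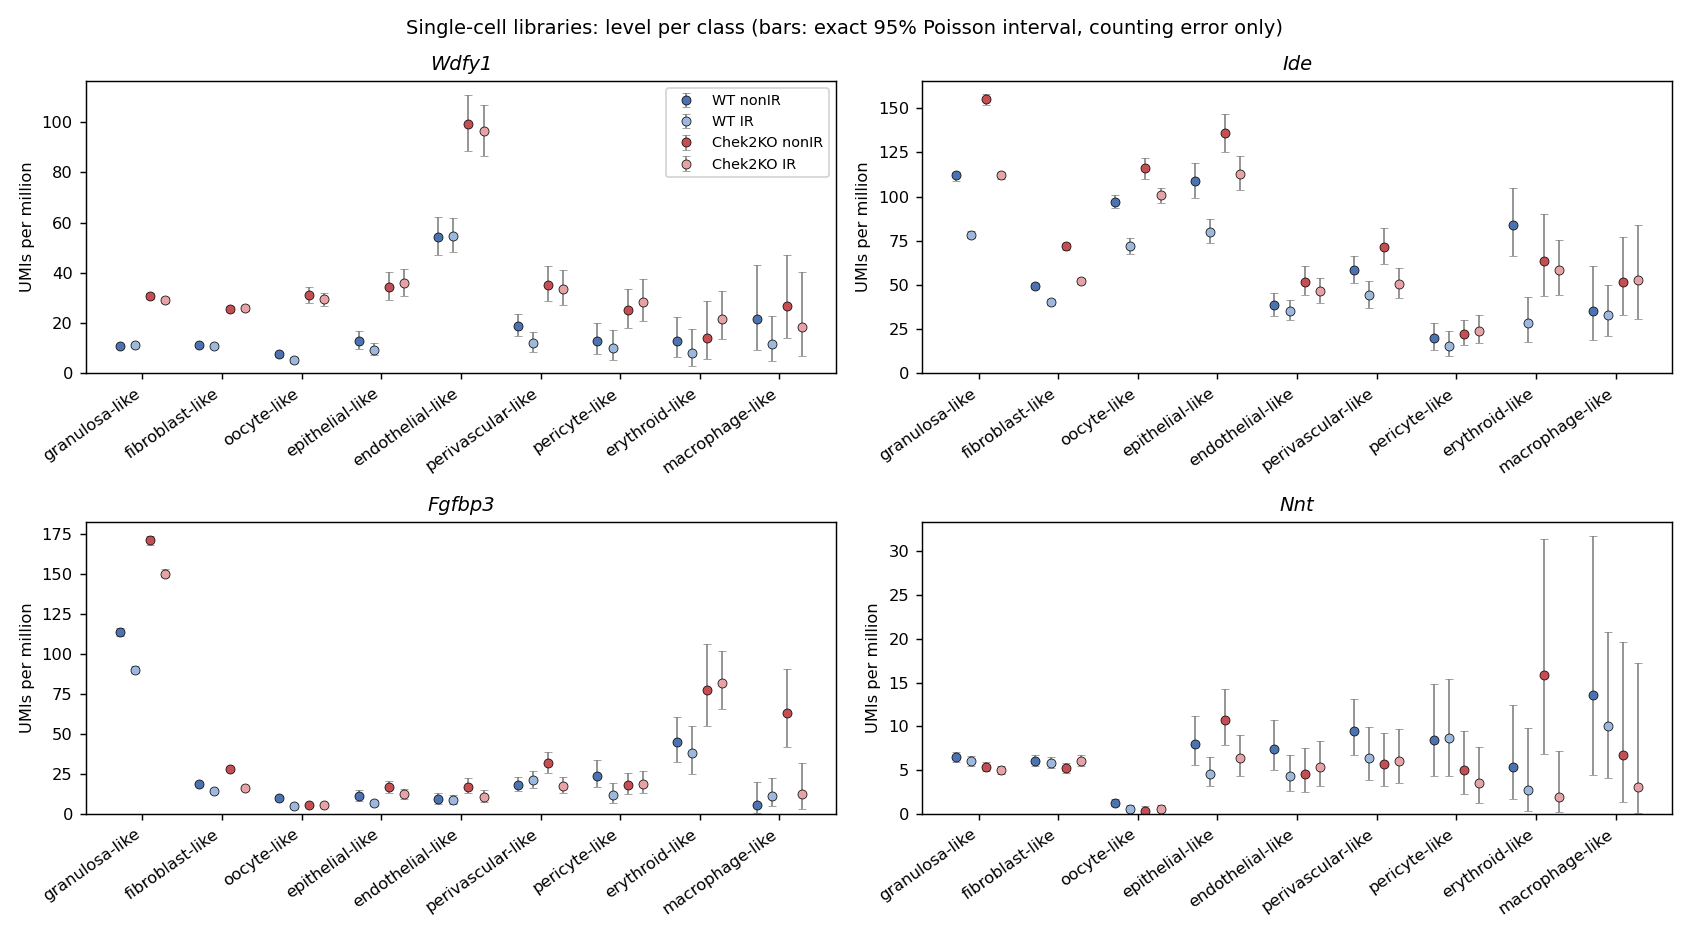
CPM of UMIs of *Nnt*, *Wdfy1*, *Ide* and *Fgfbp3* by cell class in the 4 single-cell libraries, with exact 95% limits for counting error. *Wdfy1* is higher in both *Chek2*-/- libraries in 9 of 9 classes and highest in endothelial-like cells, *Fgfbp3* is highest in granulosa-like cells at 90 to 171 CPM, and *Nnt* is lowest in oocyte-like cells at 0.337 to 1.24 CPM.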

How the data were processed

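The members and gene lists were chosen with earlier results of these data known. For bulk ovaries the authors ran nf-core/rnaseq with Trim Galore 0.6.5 and Salmon 1.3.0, per their processing notes, and deposited estimated counts per gene, which are not scaled between libraries (61.9% of the values were whole). The methods name transcripts of an Ensembl release made for a later build than the mm10 of the processing notes. Which was used was not settled, and coordinates, neighbours and copies are those of the GRCm38 annotation, whose models may differ from those counted. The single-cell matrices deposited hold counts of UMIs, made by Cell Ranger against mm10 and not yet filtered for cell quality.

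The estimated counts were rounded. Genes under 10 counts in all were dropped and the rest fitted by edgeR 4.0.16 (R 4.3.3) with TMM and 1 coefficient per group. DESeq2 1.42.0 and limma 3.58.1 (voom) were run beside it. The edgeR fit was also run on simulated counts, and the outcome of that run is not given here. Replicates differed by more than counting error (chi-square per degree of freedom 5.85 to 55.3 within groups). Each library was made from paired ovaries, taken here as 1 female. Correlations used 100000 permutations, or the exact permutation test within groups of 6, two-sided.

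Cells were kept at 1000 genes or more, at most 20% mitochondrial and at most 50% ribosomal UMIs, and Scrublet in scanpy 1.11.5 (Python 3.11.15) called 4.02 to 5.47% doublets. Leiden clusters (resolution 0.5, 30 components, 15 neighbours, igraph 0.11.9) of at least 50 cells were named where 60% of a marker list and at least 3 markers were in 25% of cells and 2-fold over the median cluster, limits set after the clusters had been seen. Named genes were the members, *Chek2*, *Entpd4b*, *Btaf1*, the 3 genes most like each member, and called neighbours or list members. *Egr3*, *Opalin*, *1010001B22Rik* and genes that passed the adjusted p alone were named after their values were seen.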

Additional observations from a re-analysis of the deposited data

Results flagged for a closer look

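Of 28 sets of 6 libraries (the 5 members, *Chek2* and *Btaf1* in 4 groups), 1 held a library far from the others by Dixon's test at 95%, where chance gives about 1 in 20. *Fgfbp3* was at 3.22 CPM in *Chek2*-/- IR library 6, and the next library of that group was at 16.7 CPM, a gap of 0.658 of the group's range. *Chek2*-/- nonIR library 6 was at 3.04 CPM and did not pass the same limit. Both libraries also stood apart in their summed oocyte, granulosa and epithelial markers, whose part in the value was not tested.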

How the results depend on the processing

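Among 870 values of the members under 35 alternative fits, 859 kept their side of the thresholds and 0 reversed a call. The 350 genotype values of the members kept their sign, while 71 of the 520 irradiation and interaction values, none of them called, changed sign. The 9 lost calls were *Nnt* and *Entpd4* going just under 2-fold, 6 of them with 1 library left out, and *Nnt* at 1.00 in nonIR and *Entpd4* at -0.98 in IR ovaries without both *Chek2*-/- libraries numbered 6, and *Nnt* at 1.00 in nonIR ovaries without both libraries high in erythroid markers, alternatives chosen after seeing the data. *Ide* gained its call in both comparisons when no minimum fold was asked. Counts over all genes moved more, and the cause was not tested. The 211 genes called between genotypes in nonIR ovaries became 81 with DESeq2, 1430 with no minimum fold and 102 in a fit of the 12 libraries alone, and 96 to 288 with 1 library left out (96, 109 and 120 without wild-type nonIR libraries 4, 2 and 3, and 129 without *Chek2*-/- nonIR library 6). The 639 in IR ovaries became 2636 with no minimum fold and 510 to 691 with 1 library left out. For irradiation the 288 genes in wild-type ovaries became 646 with no minimum fold (241 to 327 with 1 library left out), and the 1 gene in *Chek2*-/- ovaries became 9 with DESeq2, 3 with no minimum fold, 0 in a fit of the 12 libraries (edgeR) and 0 to 2 with 1 library left out (0 without *Chek2*-/- nonIR library 3 or IR library 4, and 2 without wild-type IR library 6). The 167 interactions became 277 with no minimum fold and 138 to 184 with 1 library left out. Without a minimum fold the genotype calls in nonIR ovaries were 836 higher and 594 lower, against 160 and 51.

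With the replicate number as a block 171, 621, 262, 1 and 147 genes were called in the same 5 comparisons. Same-numbered libraries did not deviate together in every pair (correlations of -0.20 to 0.69, over 0.1 in 2, 3, 3 and 5 of 6 pairs), so the numbers were not taken to pair them, and p-values of correlations over 12 libraries treat these as independent. The block changed no call of a member, with *Ide* at -0.75 and -0.73 and *Fgfbp3* at -0.69 and -0.67. In single cells the *Fgfbp3* ratio in granulosa-like cells became 1.57 and 1.53 at a Leiden resolution of 1, and over all cells summed it became 1.65 in nonIR libraries and that of *Wdfy1* 2.6.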
